A study of Mus musculus with 9 samples.

Results

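The aryl hydrocarbon receptor (AHR) pathway was followed in mouse colon organoids through 6 regulators of the response to foreign and dietary small molecules. They were the receptor gene Ahr, its dimer partner Arnt, its repressor Ahrr, the feedback inhibitor Tiparp, and the nuclear receptor genes Nr1i2 and Nr1i3, which encode the pregnane X receptor (PXR) and the constitutive androstane receptor (CAR). The 6 genes were found through the RefSeq accessions printed beside the array's probes and had 11 probes in all, of 20660 genes that could be named on the array. All 6 entered the fit of 14037 genes, but Ahrr passed the filter on dim probes only through the 12-week arrays and Nr1i2 only through the arrays of 0 and 12 weeks. The genes were chosen because their levels in these arrays were already known, so their own values are given as a description without a p-value.

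The study hybridised total RNA of colon organoids, cultures of gut epithelium grown in a gel, to 9 one-colour arrays. There were 3 untreated samples (0 weeks), 3 samples kept with inflammatory reagents for 12 weeks and 3 kept with them for 60 weeks. The labels do not name the reagents, the strain, the sex or the age of the mice, and they do not say whether the 3 samples of a group came from separate cultures or animals, so the p-values below measure only the spread between these samples. No untreated culture of 12 or 60 weeks was analysed here, so treatment and time in culture cannot be told apart.

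AHR is a ligand-activated transcription factor of the bHLH-PAS family that waits in the cytoplasm with HSP chaperones. After binding pollutants, plant indoles or tryptophan products it enters the nucleus, pairs with ARNT and binds a short DNA element with the core GCGTG, where it switches on enzymes such as Cyp1a1 and also its own brakes, Ahrr and Tiparp. PXR and CAR act beside it as nuclear receptors that pair with retinoid X receptors and control Cyp2b, Cyp2c and Cyp3a enzymes and drug transporters, mostly known from liver and intestine.

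Across the 9 arrays, 49.2 to 52.8% of probes were well above background and no spot was saturated. All 13 colon epithelium markers were well above background on every array. Among listed markers of other cell types, Ptprc and Lyz2 (immune cells) and Dcn, Lum, Pdgfra, Pdgfrb and Thy1 (fibroblasts) were above background on none. The same held for Cdh5 and Tek (endothelium) and for Alb, Apoa1, Ttr and Cps1 (hepatocytes). Other markers of the same lists were detected. Cd3e, Itgam, Csf1r, Pecam1, Kdr, Col1a2 and Cyp2e1 were above background on all 9 arrays, Serpina1a on 8, Col1a1 on 6, Adgre1 on 3 and Col3a1 on 2. In linear units of the array's 75th percentile, the immune list summed to 16.7 to 23.4, 24.3 to 48.0 and 27.3 to 34.4 at 0, 12 and 60 weeks, the endothelial list to 6.84 to 11.3 over all arrays, and the fibroblast and hepatocyte lists stayed under 1. The part of these genes in the results was not tested. Replicate 2 of the 12-week group stood apart, with a correlation of 0.978 and 0.977 to the other two arrays of its group, against 0.992 between those. The Y-linked gene Ddx3y had log2 levels of 1.06 to 1.20 at 0 weeks and 1.43 to 1.49 at 12 weeks and was not above background on any 60-week array, and Uty, also Y-linked, was above background on every array of 0 and 12 weeks and on none of 60 weeks. The X-linked transcript Xist and the Y-linked genes Kdm5d and Eif2s3y were above background on none of the 9 arrays. The cause of the difference in Ddx3y and Uty was not tested. The labels do not say whether the 60-week cultures came from the same animals as the others, so a difference in source cannot be told apart from treatment in any comparison with 60 weeks. In bulk RNA, fewer cells of a type and less RNA per cell cannot be told apart.

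Upstream sequence was available for 5 of the 6 genes (RefSeq, GRCm38.p6), all except Ahr. The 250 bases before the start of Ahrr and of Tiparp are shown because both genes are known brakes that AHR switches on, yet their levels in these organoids followed different courses. Capitals mark the core GCGTG, or CACGC where it lies on the other strand. The Ahrr sequence is chr13:74292332-74292581 on the minus strand, and the Tiparp sequence is chr3:65528197-65528446 on the plus strand.
Ahrr: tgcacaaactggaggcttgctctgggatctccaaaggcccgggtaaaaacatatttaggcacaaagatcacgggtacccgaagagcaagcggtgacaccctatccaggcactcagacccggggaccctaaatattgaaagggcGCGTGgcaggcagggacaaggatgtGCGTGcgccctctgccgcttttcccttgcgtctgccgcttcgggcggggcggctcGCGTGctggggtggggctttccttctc
Tiparp: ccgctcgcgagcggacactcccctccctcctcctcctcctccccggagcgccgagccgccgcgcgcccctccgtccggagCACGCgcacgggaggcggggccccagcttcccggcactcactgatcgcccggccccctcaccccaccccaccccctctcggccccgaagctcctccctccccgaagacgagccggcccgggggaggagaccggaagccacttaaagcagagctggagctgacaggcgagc
Ahrr holds 3 cores, of which those nearest the start begin 82 and 27 bases before it, and 1 of the 3 has the longer form TNGCGTG, which contains the core. Tiparp holds 1 core, 170 bases before its start, and none in the longer form. Arnt also holds 1 core, whereas Nr1i2 and Nr1i3 hold none. Searched on both strands, 28.2% of all 32851 promoter windows of this length hold the core and 4.1% hold the longer form. These matches are letters in a window and say nothing of binding.

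Levels are given on a log2 scale on which 0 is the 75th percentile of the same array, so that a negative level is dimmer than that percentile. A level compares the same probe between arrays and cannot be set against the level of another probe.

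**Figure D1:**
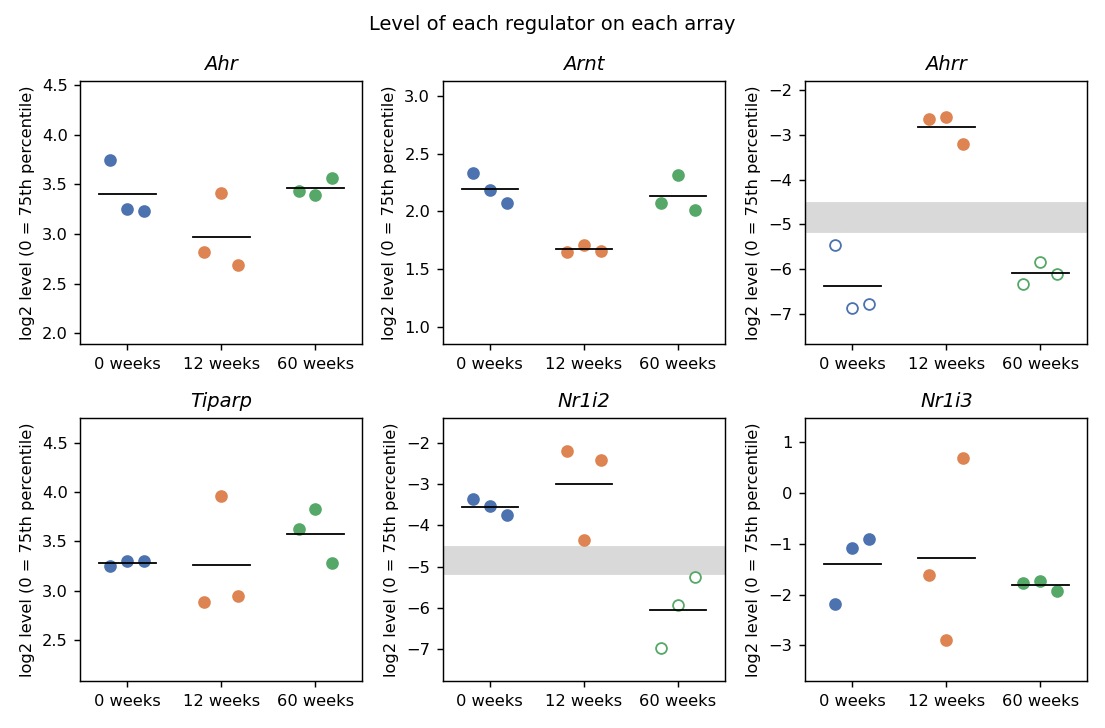
Log2 level (0 = the array's 75th percentile) of each of the 6 genes on each of the 9 arrays at 0, 12 and 60 weeks of treatment, with a black line at each group's mean. Filled points were well above background and open points were not, and the grey band spans the lowest well-above-background signals of the arrays (-5.17 to -4.52). Ahrr is filled only at 12 weeks, and Nr1i2 is open only at 60 weeks.

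The receptor itself was well above background throughout and its groups overlapped. Ahr, on chromosome 12, had log2 levels of 3.74, 3.25 and 3.23 on the untreated arrays, 2.82, 3.41 and 2.69 on the 12-week arrays and 3.43, 3.39 and 3.56 on the 60-week arrays. The 12-week arrays of replicates 1 and 3 lay below all the others, while replicate 2 lay among the values of 0 and 60 weeks. The mean was 2.98 ± 0.39 at 12 weeks and 3.41 ± 0.29 at 0 weeks (SD, n = 3 each), a log2 change of -0.43 ± 0.21 (SE), and without replicate 2 of the 12-week group the change was -0.65. At 60 weeks the mean was 3.46 ± 0.09, which differed from 0 weeks by 0.06 ± 0.21 and from 12 weeks by 0.49 ± 0.21 on the log2 scale. A dimmer Ahr probe, above background on 2 of 3 arrays of each group, ran from -5.09 to -3.64 over all 9 arrays and gave changes of -0.64 at 12 against 0 weeks and -0.29 at 60 against 0 weeks.

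The partner Arnt was lower at 12 weeks by a small amount. Arnt, on chromosome 3, had log2 levels of 2.33, 2.19 and 2.07 on the untreated arrays, 1.65, 1.71 and 1.66 on the 12-week arrays and 2.07, 2.32 and 2.01 on the 60-week arrays. The 12-week arrays lay close together below every array of the other groups, and the arrays of 60 and 0 weeks overlapped. The log2 change was -0.52 ± 0.11 for 12 against 0 weeks, -0.06 ± 0.11 for 60 against 0 weeks and 0.46 ± 0.11 for 60 against 12 weeks. The other Arnt probe also lay lower at 12 weeks (0.37 ± 0.32) than at 0 weeks (0.88 ± 0.18), but its 60-week mean of 1.40 ± 0.35 exceeded that of 0 weeks by 0.52, so the probes disagreed on 60 against 0 weeks.

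Ahrr, a bHLH-PAS protein that competes with AHR for ARNT and for its DNA element, was detected only at 12 weeks. Ahrr, on chromosome 13, had log2 levels of -5.45, -6.88 and -6.78 on the untreated arrays, -2.64, -2.59 and -3.21 on the 12-week arrays and -6.33, -5.84 and -6.11 on the 60-week arrays. All 3 arrays of 12 weeks were well above background, and none of the 6 arrays of 60 and 0 weeks was. The mean of -2.81 ± 0.34 at 12 weeks was at least 3.80-fold higher than at 0 weeks (measured mean -6.37 ± 0.80). At 60 weeks (-6.09 ± 0.24) it was at least 3.88-fold lower than at 12 weeks. Such bounds set each dim array to the lowest signal that counted as well above background on it. The fitted log2 changes, 3.56 ± 0.37 at 12 against 0 weeks and -3.28 ± 0.37 at 60 against 12 weeks, lie beyond these bounds but rest on dim signals, and between 60 and 0 weeks no fold is given since both were below background. The call of Ahrr rests on 1 probe, because the other Ahrr probe was not above background on any of the 9 arrays, with means of -6.97, -7.03 and -6.91 at 0, 12 and 60 weeks.

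Tiparp, an AHR-induced mono-ADP-ribosyltransferase that modifies AHR and marks it for breakdown, was bright in all groups. Tiparp, on chromosome 3, had log2 levels of 3.25, 3.30 and 3.30 on the untreated arrays, 2.88, 3.96 and 2.94 on the 12-week arrays and 3.63, 3.83 and 3.28 on the 60-week arrays. Replicate 2 of the 12-week group was the highest of all 9 arrays, and the other two of that group were the lowest. The log2 change was -0.02 ± 0.28 for 12 against 0 weeks, 0.30 ± 0.28 for 60 against 0 weeks and 0.32 ± 0.28 for 60 against 12 weeks, with overlapping groups in each. Without that replicate, Tiparp differed by -0.38 at 12 against 0 weeks and by 0.67 at 60 against 12 weeks. The other Tiparp probe gave 2.93 ± 0.50 at 12 weeks and 2.93 ± 0.11 at 0 weeks.

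Nr1i2 (PXR), which senses bile acids and drugs, was dim at 0 and 12 weeks and not above background at 60 weeks. Nr1i2, on chromosome 16, had log2 levels of -3.36, -3.52 and -3.74 on the untreated arrays, -2.18, -4.35 and -2.41 on the 12-week arrays and -6.98, -5.94 and -5.25 on the 60-week arrays. Every 60-week array lay below every array of the other groups, and at 12 weeks replicate 2 lay below the 0-week arrays while replicates 1 and 3 lay above them. At 60 weeks Nr1i2 was at least 2.34-fold lower than at 0 weeks and at least 3.46-fold lower than at 12 weeks. Its measured means were -3.54 ± 0.19, -2.98 ± 1.20 and -6.06 ± 0.87 in the order of time. The log2 change at 12 against 0 weeks was 0.56 ± 0.60 with all arrays and 1.25 without replicate 2 of the 12-week group. The array carries 1 probe for it.

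Nr1i3 (CAR), which responds to drugs and to bilirubin, varied more within the groups of 0 and 12 weeks than between group means. The 60-week arrays lay close together (SD 0.11). Nr1i3, on chromosome 1, had log2 levels of -2.18, -1.09 and -0.91 on the untreated arrays, -1.62, -2.90 and 0.68 on the 12-week arrays and -1.78, -1.73 and -1.94 on the 60-week arrays. The 12-week group held both the highest and the lowest of the 9 arrays, and the groups overlapped in every comparison. The log2 changes were 0.12 for 12 against 0 weeks, -0.43 for 60 against 0 weeks and -0.54 for 60 against 12 weeks, each with an SE of 0.78. Without replicate 2 of the 12-week group, Nr1i3 gave 0.93 at 12 against 0 weeks and -1.35 at 60 against 12 weeks. The other Nr1i3 probe was never above background.

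In the fit over all genes, 2 of the 6 genes were called at an adjusted p under 0.05 at 12 against 0 weeks (Ahrr higher, Arnt lower), where 41.8% of all genes tested were called, 19.1% as higher and 22.7% as lower. At 60 against 0 weeks 1 was called (Nr1i2 lower), beside 32.8% of all genes, 16.7% as higher and 16.1% as lower. At 60 against 12 weeks 3 were called (Arnt higher, Ahrr and Nr1i2 lower), beside 38.3% of all genes, 20.7% as higher and 17.6% as lower. The same genes in the same comparisons were those whose groups did not overlap, which held for 54.6%, 56.5% and 47.3% of all genes tested. The 12-week arrays enter both the first and the last of these comparisons, and since the genes were chosen on these values nothing is read from the counts. The median change over all genes was -0.06, -0.04 and 0.02 in the same order. For chromosome 12, which holds Ahr, Hif1a and Hsp90aa1, it was 0.23, 0.22 and -0.01, with 35.5% of its genes called higher at 12 against 0 weeks. For chromosome 5, which holds Abcb1a and Abcb1b, it was 0.17, 0.11 and -0.03. On chromosomes 1, 3, 13 and 16, which hold the other members, it was -0.12, -0.09, -0.19 and -0.16 at 12 against 0 weeks. The part of these shifts in single genes was not tested.

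The arrays lay on 2 slides, and the rows of the main slide held the groups unevenly. With slide and row as a block, the log2 change at 12 against 0 weeks was 3.73 for Ahrr, -0.55 for Arnt, -0.59 for Ahr and 1.36 for Nr1i2. These equal the values within the slide row that holds both groups, which has 1 array of 12 weeks and 3 of 0 weeks. At 60 against 12 weeks the block and the row that holds both groups, with 2 arrays of each, gave -3.19 for Ahrr, -3.08 for Nr1i2, 0.51 for Arnt and 0.36 for Ahr. No row held arrays of both 60 and 0 weeks, and there the block gave -1.71 for Nr1i2 and -0.23 for Ahr.

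Spread among the 12-week arrays ran through several of the 6 genes and through markers of mature colon cells. Krt20, a keratin of mature surface cells, had log2 levels of 2.35, 2.21 and 1.97 on the untreated arrays, 4.70, 2.59 and 5.18 on the 12-week arrays and 0.68 to 1.05 on the 60-week arrays. Car1, a carbonic anhydrase of mature colonocytes, had 1.86, 2.13 and 0.11 on the untreated arrays, 6.42, 2.37 and 7.40 on the 12-week arrays and -1.58 to -1.13 on the 60-week arrays. Replicate 2 of the 12-week group was the lowest of its group for both markers, for Nr1i2 and for Nr1i3, and the highest for Ahr and Tiparp. At 60 weeks Krt20, Car1 and Nr1i2 had their lowest group means. Both markers were singled out from the 13 after their values were seen, and the other markers did not all follow them. Muc13, a membrane mucin gene, averaged 7.13 at 60 weeks and 3.17 at 0 weeks (log2 change 3.96, adjusted p = 4.74e-06, limma), and of the 13 markers 2 rose and none fell at 60 against 0 weeks, while 5 rose and 1 fell at 12 against 0 weeks. The summed linear signal of all 13 epithelial markers, in units of the array's 75th percentile, ran from 1610 to 1890 on the untreated arrays, 1820 to 2010 on the 12-week arrays and 1860 to 2040 on the 60-week arrays. The part of these markers in the levels of Nr1i2, Nr1i3, Ahr and Tiparp was not tested.

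**Figure D2:**
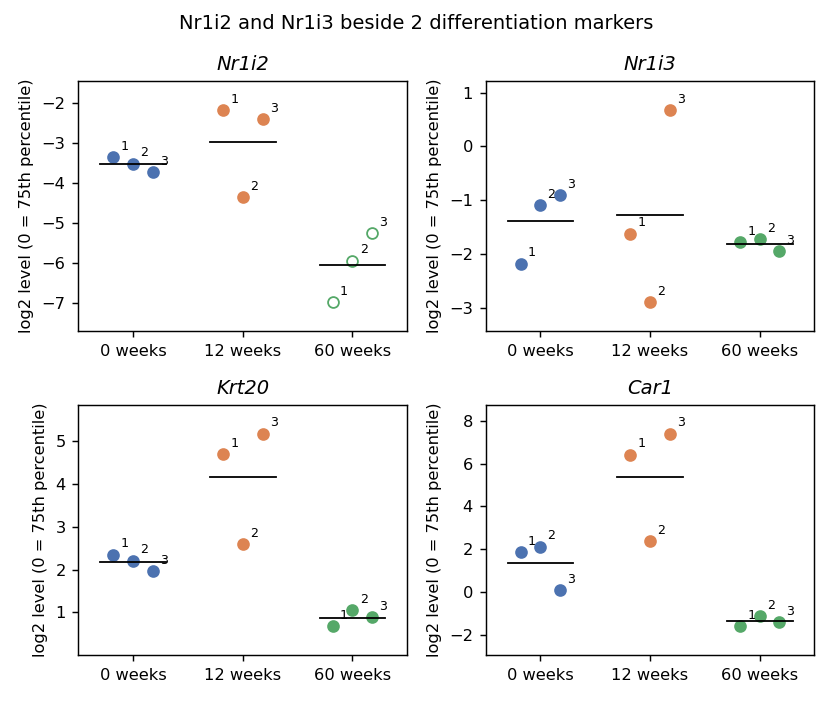
Log2 level (0 = the array's 75th percentile) of Nr1i2, Nr1i3 and the colon markers Krt20 and Car1 on each array at 0, 12 and 60 weeks, with replicate numbers beside the points and a line at each group's mean; open points were not well above background. In all 4 panels replicate 2 is the lowest 12-week array, and for Nr1i2, Krt20 and Car1 the 60-week arrays are the lowest.

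The genes that AHR is known to switch on did not move one way. Of 14 listed targets 13 were on the array and 11 were tested. At 12 against 0 weeks 3 rose, 4 fell and 4 were not called by limma's moderated test (63.6% called, beside 41.8% of all genes; median log2 change -0.17, beside -0.06 over all genes). Cyp1a1, the classical AHR-induced enzyme, was above background on none of the 9 arrays, and Cyp1a2 on 1 of them. Cyp1b1, another AHR-induced enzyme, had log2 levels of 0.82, 1.48 and 0.45 at 12 weeks, against 2.32, 2.05 and 2.06 at 0 weeks. The groups did not overlap, and Cyp1b1 fell by 1.22 ± 0.26 on the log2 scale (adjusted p = 0.00622, limma). The detoxifying aldehyde dehydrogenase Aldh3a1 had 4.39, 5.68 and 4.51 at 12 weeks, against 8.09, 7.87 and 8.23 at 0 weeks, a log2 change of -3.21 ± 0.32 (adjusted p = 0.000135, limma). Serpinb2, a protease inhibitor gene, rose by 2.60 ± 0.29 (adjusted p = 0.000255, limma), and Nfe2l2, the regulator of the antioxidant response, changed by -0.72 ± 0.11 (adjusted p = 0.00142, limma). Ahrr, at least 3.80-fold higher in the same comparison, stood beside targets that fell, such as Cyp1b1 and Aldh3a1, an undetected Cyp1a1 and targets that rose. Those that rose were Serpinb2, Ereg (1.71 ± 0.27) and Slc7a5 (0.99 ± 0.24). The part of AHR or Ahrr in these changes was not tested. Without replicate 2 of the 12-week group 9 of the 11 targets were called, and so were 7405 of all 14037 genes, against 5861 with it.

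At 60 against 0 weeks 1 of the 11 targets rose, 5 fell and 5 were not called (54.5% called, beside 32.8% of all genes), with a median log2 change of -0.56 beside -0.04 over all genes. Ugt1a6b, a glucuronidation enzyme, had log2 levels of -0.73, -0.85 and -0.36 at 60 weeks, against 4.58, 4.23 and 4.56 at 0 weeks, and fell 34.4-fold (log2 change -5.11 ± 0.29, adjusted p = 8.38e-06, limma). It shares exons with Ugt1a6a, whose own probe was above background on 2 of the 9 arrays. Which transcript the probe measured, of these or of others that share its sequence, is uncertain. Aldh3a1 changed by -2.30 ± 0.32 (adjusted p = 0.000996, limma), Nfe2l2 by -1.02 ± 0.11 (adjusted p = 0.000293, limma) and Nqo1, the quinone reductase shared by the AHR and NFE2L2 responses, by -1.10 ± 0.25 (adjusted p = 0.0103, limma). Cyp1b1 did not pass the test at 60 against 0 weeks, with a change of -0.12 ± 0.26, while at 60 against 12 weeks it rose by 1.10 ± 0.26 (adjusted p = 0.0112, limma). With slide and row as a block that change was 0.89 (adjusted p = 0.0891, limma). At 60 against 12 weeks 2 targets rose and 5 fell (63.6% called, beside 38.3% of all genes). Slide and row as a block lowered the targets called at 60 against 0 weeks to 3, Ugt1a6b, Aldh3a1 and Nqo1, and Nfe2l2 lost its call (-0.82, adjusted p = 0.059, limma); of all genes 1392 were then called, against 4598 without the block.

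**Figure D3:**
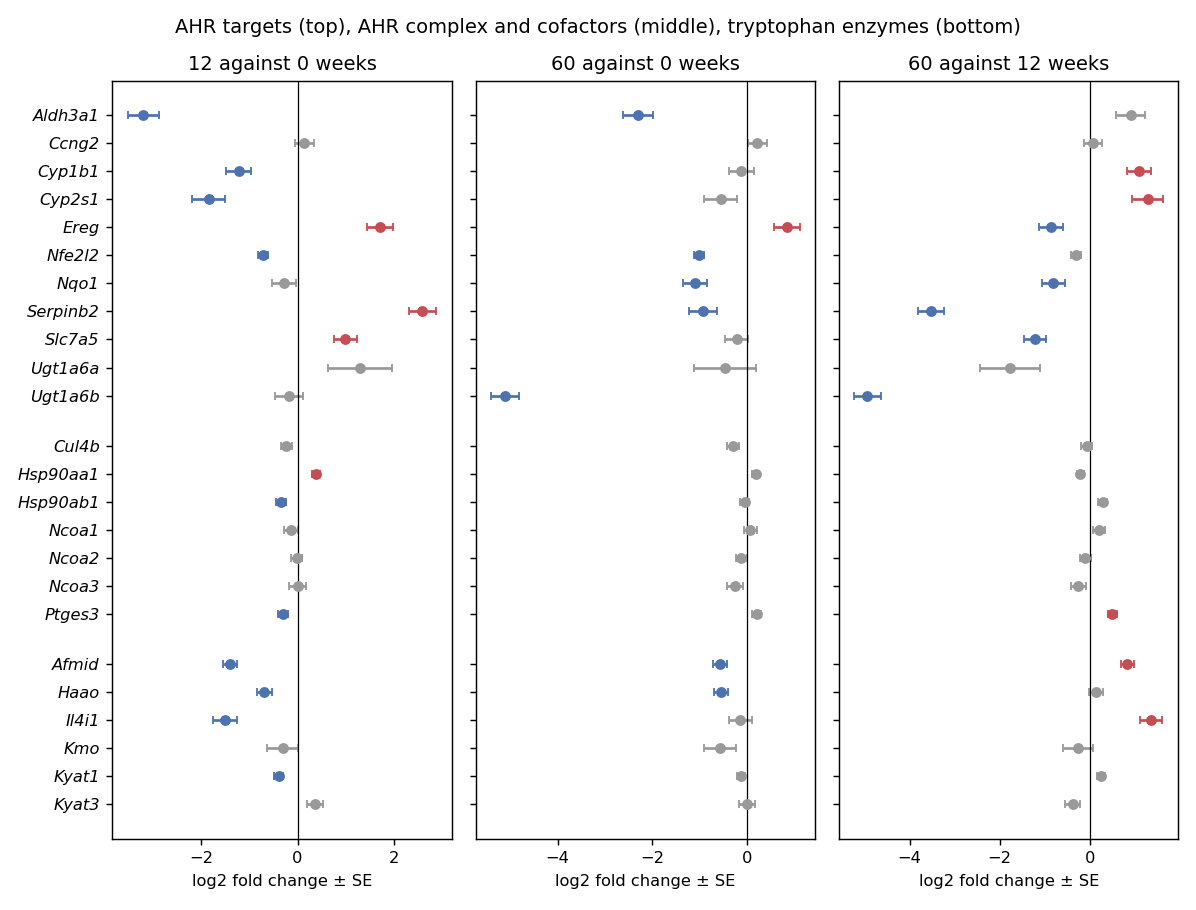
Log2 fold change ± SE (limma, 3 arrays a group) of AHR targets, AHR complex members and cofactors, and tryptophan enzymes at 12 against 0, 60 against 0 and 60 against 12 weeks. Red points passed the test as higher, blue points as lower and grey points did not pass; Aldh3a1 lies at -3.21 and -2.30 in the panels against 0 weeks, and Ugt1a6b at -5.11 and -4.94 in the panels of 60 weeks.

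Of 9 genes whose proteins hold AHR ready or act with it, 1 rose and 3 fell at 12 against 0 weeks (44.4% called, beside 41.8% of all genes), none was called at 60 against 0 weeks by limma, and 2 rose at 60 against 12 weeks (22.2% called, beside 38.3% of all genes). Hsp90aa1 rose by 0.39 ± 0.08 at 12 against 0 weeks (adjusted p = 0.00693, limma). Ncoa1, Ncoa2 and Ncoa3, which encode transcriptional coactivators, lay within 0.25 log2 units of their other group means in every comparison.

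Of 12 genes of tryptophan metabolism, a source of AHR ligands, 6 were tested. Ido1, Ido2, Tdo2, Aadat, Kynu and Tph1 were above background on none of the 9 arrays. At 12 against 0 weeks 4 of the 6 fell and none rose, beside 22.7% of all genes that fell and 19.1% that rose. Il4i1, an amino acid oxidase that yields AHR-activating indoles, averaged -2.33 ± 0.58 at 12 weeks and -0.83 ± 0.10 at 0 weeks, a log2 change of -1.50 ± 0.25 (adjusted p = 0.00235, limma). Afmid, the kynurenine formamidase, changed by -1.41 ± 0.15 (adjusted p = 0.00023, limma). At 60 against 12 weeks both rose, Il4i1 by 1.36 ± 0.25 (adjusted p = 0.00454, limma) and Afmid by 0.84 ± 0.15 (adjusted p = 0.00396, limma). At 60 against 0 weeks 2 of the 6 fell (33.3%, beside 32.8% of all genes called in either direction), and with slide and row as a block none of the 6 passed.

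Targets of PXR and CAR split by gene, with some rising and some falling in each comparison. Of 16 listed genes 15 were on the array and 12 were tested, of which 5 rose and 2 fell for 12 against 0 weeks, 4 rose and 2 fell for 60 against 0 weeks, and 3 rose and 3 fell for 60 against 12 weeks. The shares called were 58.3%, 50.0% and 50.0%, beside 41.8%, 32.8% and 38.3% of all genes. Cyp2b10, the hallmark CAR-induced enzyme, had log2 levels of 0.45, 0.09 and 0.01 on the untreated arrays, 4.10, 3.88 and 3.69 on the 12-week arrays and 4.75, 4.64 and 5.06 on the 60-week arrays, and no groups overlapped. It was 13.1-fold higher at 12 than at 0 weeks (log2 change 3.71 ± 0.17, adjusted p = 2.3e-06, limma) and 24.9-fold higher at 60 than at 0 weeks (log2 change 4.64 ± 0.17, adjusted p = 8.29e-07, limma). Cyp2b10 rose at both times, while the groups of Nr1i3 overlapped and Nr1i2 was below background at 60 weeks. The part of either receptor in the levels of the targets was not tested.

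Cyp3a13, an intestinal drug-oxidising enzyme, had log2 levels of -1.57, -1.67 and -1.42 at 60 weeks, against 0.46, 0.51 and 0.47 at 0 weeks. It fell 4.09-fold (log2 change -2.03 ± 0.21, adjusted p = 0.000202, limma), as Nr1i2 also did, but a link between them was not tested. Cyp2c55, a colon-expressed cytochrome, had 2.03, -1.66 and 2.07 at 12 weeks, against -4.19, -3.93 and -6.60 at 0 weeks, with replicate 2 again lowest of the 12-week arrays. Replicate 3 of the 0-week group was not above background. The fitted log2 change was 5.72 ± 1.05 (adjusted p = 0.00331, limma) and ran from 4.87 to 6.96 with single arrays left out, and at 60 weeks, below background, it was at least 48.0-fold lower than at 12 weeks (adjusted p = 0.00122, limma). The drug efflux pump genes Abcb1a and Abcb1b rose by 1.67 ± 0.37 (adjusted p = 0.00782, limma) and 1.10 ± 0.17 (adjusted p = 0.0015, limma) at 12 against 0 weeks. Without replicate 2 of the 12-week group 10 of the 12 targets were called at 12 against 0 weeks, where more of all genes were called too, and slide and row as a block left 2 at 60 against 0 weeks.

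**Figure D4:**
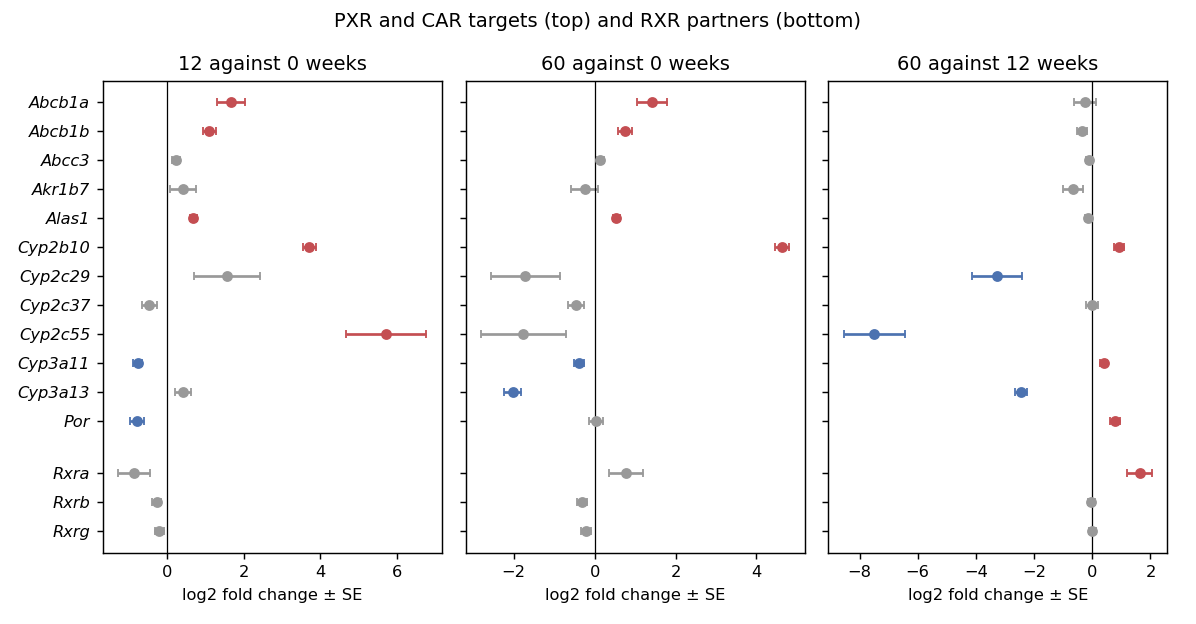
Log2 fold change ± SE (limma, 3 arrays a group) of PXR and CAR targets and of the retinoid X receptor partners at 12 against 0, 60 against 0 and 60 against 12 weeks. Red points passed the test as higher, blue as lower and grey did not pass; Cyp2b10 lies at 3.71 and 4.64 against 0 weeks, and Cyp2c55 at 5.72 in the panel of 12 against 0 weeks.

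The partners of PXR and CAR, the retinoid X receptors, passed no test at 12 or 60 against 0 weeks by limma. At 60 against 12 weeks Rxra rose by 1.63 ± 0.42 (adjusted p = 0.0167, limma), but the call held in 17 of 23 alternatives only. It was lost without replicate 1 or 3 of the 12-week group or replicate 2 of the 60-week group. It was also lost with slide and row as a block (adjusted p = 0.082, limma) and within 1 slide row (adjusted p = 0.213, limma). In the deposited value table the change was 0.19 (adjusted p = 0.472, limma). That table lists 42530 of the 55681 probes, and Rxra has 2 probes on the array. Which of them gave the 0.19 was not checked, so the probes may disagree. Without replicate 2 of the 12-week group Rxra passed as lower at 12 against 0 weeks, by -1.41 (adjusted p = 0.000566, limma).

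Relatives of the 6 genes were read for comparison, beside the 41.8%, 32.8% and 38.3% of all genes called at 12 against 0, 60 against 0 and 60 against 12 weeks. Of 9 other bHLH-PAS factors tested, 3 rose and 2 fell at 12 against 0 weeks, 3 rose and 2 fell at 60 against 0 weeks, and 2 rose at 60 against 12 weeks, which makes 55.6%, 55.6% and 22.2% called. Hif1a and Epas1, the oxygen-sensitive factors that also pair with ARNT, went opposite ways at 12 against 0 weeks, Hif1a by 0.81 ± 0.11 (adjusted p = 0.000892, limma) and Epas1 by -1.34 ± 0.09 (adjusted p = 1.72e-05, limma). At 60 weeks Epas1 averaged 5.46 ± 0.03 and at 12 weeks 4.47 ± 0.11 (adjusted p = 0.000122, limma), so that like Arnt it was lowest at 12 weeks. Arnt2, the other partner of AHR, was above background on none of the 9 arrays. Of 19 other nuclear receptors tested, 5 rose and 6 fell at 12 against 0 weeks, 2 rose and 2 fell at 60 against 0 weeks, and 6 rose and 4 fell at 60 against 12 weeks, which makes 57.9%, 21.1% and 52.6% called. Hnf4a, a nuclear receptor of gut and liver epithelium, rose by 1.31 ± 0.11 at 12 against 0 weeks (adjusted p = 5.19e-05, limma) and fell by 1.37 ± 0.11 at 60 against 12 weeks (adjusted p = 6.1e-05, limma). The vitamin D receptor gene Vdr passed in none of the comparisons with all 9 arrays. Without replicate 2 of the 12-week group it passed as higher at 12 against 0 weeks, by 1.27 (adjusted p = 0.0121, limma). Vdr was above background on only 5 of the 9 arrays, and replicate 2 of the 0-week group was not among them, so this change rests partly on dim signal. Of 10 other mono-ADP-ribosyltransferases, relatives of Tiparp, 3 rose and 3 fell at 12 against 0 weeks, 4 rose at 60 against 0 weeks, and 3 rose and 1 fell at 60 against 12 weeks, which makes 60.0%, 40.0% and 40.0% called. Parp16, which acts at the endoplasmic reticulum, rose by 1.97 ± 0.26 at 60 against 12 weeks (adjusted p = 0.000943, limma).

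The genes most like Ahr and Ahrr were taken by Pearson's r of log2 levels over the 9 arrays, among 13357 genes. These r values describe 9 points that share 3 groups, and carry no p. The genes were picked on these same arrays, so a course like that of Ahr or Ahrr follows from the choice. For Ahr they were Scarb1 (0.968), Hmgcll1 (0.955), Rsbn1l (0.951), Ralgapa2 (0.948) and Trappc1 (0.948), all of which, like Ahr, had 12-week replicates 1 and 3 below replicate 2. For Ahrr they were Cln3 (0.987), Krt6a (0.977), Pcsk7 (0.977), P3h3 (0.976) and Diaph2 (0.975), each higher at 12 weeks than at 0 and 60 weeks. Ahrr itself was not above background on the 6 arrays of 60 and 0 weeks, so its r values and their ranking rest there on background readings. Krt6a, a keratin of stressed and wounded epithelium, was, like Ahrr, above background only at 12 weeks, at least 10.9-fold higher than at 0 weeks, and at 60 weeks it was at least 11.2-fold lower than at 12 weeks. P3h3, a collagen prolyl hydroxylase gene, was also above background only at 12 weeks. It was at least 3.87-fold higher at 12 than at 0 weeks and at least 3.95-fold lower at 60 than at 12 weeks, bounds close to those of Ahrr. Like Ahrr, Krt6a and P3h3 passed the filter on dim probes only through the 12-week arrays. Cln3, Pcsk7 and Diaph2 followed the same pattern by less, with log2 changes of 0.46 to 0.88 at 12 against 0 weeks.

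**Figure D5:**
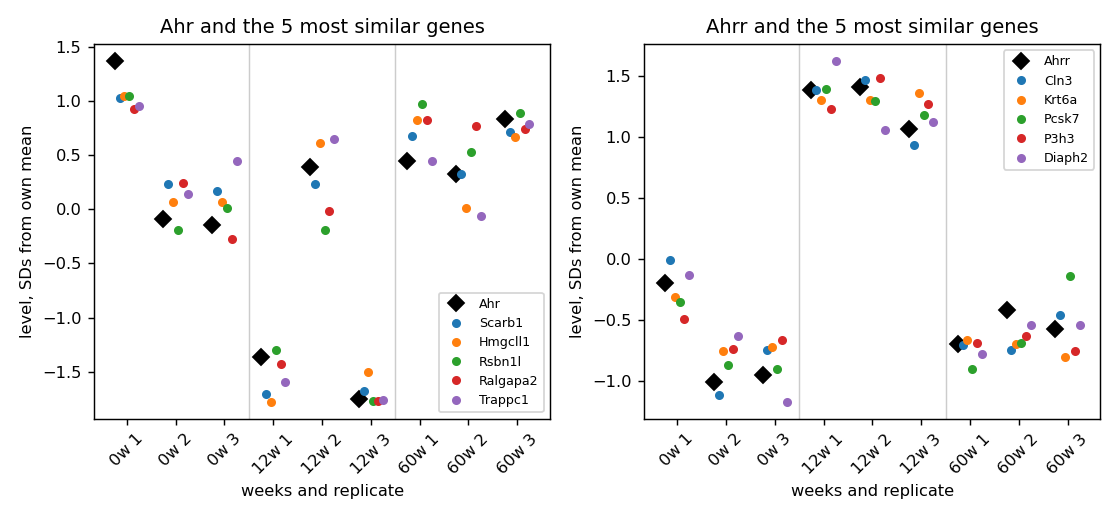
Levels of Ahr (left) and Ahrr (right) as black diamonds and of the 5 genes most like each as coloured points on the 9 arrays (weeks and replicate), each gene in SDs from its own mean over the arrays. In the left panel replicate 2 stands above replicates 1 and 3 at 12 weeks, and in the right panel all 3 arrays of 12 weeks stand above all others.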

How the data were processed

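Total RNA was labelled with Cy3 and hybridised to 9 one-colour Agilent arrays, 3 per group. Per the file headers, the authors' scanner files were made with Agilent Feature Extraction 10.7.3.1 (protocol GE1_107_Sep09, array design on mm9), and the deposited intensity used here is its processed signal, already background-corrected. The deposited value table matched these signals divided by about each array's 75th percentile and was an alternative source. Its numbers were ratios to which no log had been applied, with medians of 0.0582 to 0.0733. From the intensities, log2 values were computed and the 75th percentile of an array's non-control probes was subtracted from each. Outlier spots (117 to 163 of 59305 per array) were left out and spots of a probe averaged. Of 55681 probes 27235 were named through RefSeq accessions (GRCm38.p6 gene table), none with several genes. Probes well above background on at least 2 of 3 arrays of a group were kept, and the brightest probe stood for its gene.

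Groups were compared with limma 3.58.1 in R 4.3.3, in a fit of all 9 arrays with no block, two-sided, with Benjamini-Hochberg adjustment over 14037 genes and a threshold of 0.05; the fit was tested on simulated data. The number of arrays limits the precision. Array pairs held no identical columns. Replicate numbers were not used to pair the samples. Deviations from the group mean correlated at -0.08 to 0.20 between same-numbered arrays and at -0.24 to 0.16 between differently numbered ones. Deviations within a group of 3 are tied to each other, so these values cannot decide whether the numbers pair samples. Members and gene lists were chosen with earlier results of these data known. The text names, of each list and comparison, up to 4 called genes in order of adjusted p, a panel of pathway genes, and the 5 genes most like Ahr and Ahrr; the cell markers named were not part of that rule, and a few listed genes are counted but not reported here. The planned normexp correction needed mean signals that the files do not hold and was run on median signals, an alternative chosen after seeing the data. Alternatives covered scaling, background, filters, probe choice, slide and replicate blocks, and leaving out each array.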

Additional observations from a re-analysis of the deposited data

How the results depend on the processing

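Of the alternative values for Arnt, Tiparp, Nr1i2 and Nr1i3, 267 moved by less than the spread between replicates and 8 by more. Leaving out single arrays gave log2 changes for Ahr of -0.65 to -0.27 for 12 against 0 weeks, -0.03 to 0.22 for 60 against 0 weeks and 0.35 to 0.71 for 60 against 12 weeks, and for Ahrr of 3.30 to 4.02 for 12 against 0 weeks and -3.48 to -3.16 for 60 against 12 weeks (fitted values, beyond the bounds). With normexp background correction, whose offset of 50 compresses dim signals, Ahrr gave 0.85 at 12 against 0 weeks and -0.79 at 60 against 12 weeks. The other Ahrr probe, below background throughout, gave -0.06 and 0.12. Ahr at 60 against 0 weeks was -0.23 with slide and row as a block and -0.29 by its other probe; the cause was not tested. The genes called numbered 5861 for 12 against 0 weeks, 4598 for 60 against 0 weeks and 5379 for 60 against 12 weeks, and 4229 to 7405, 3195 to 6021 and 3625 to 7075 with 1 array left out, highest without replicate 2 of the 12-week group. With slide and row as a block they numbered 1392 at 60 against 0 weeks and 3469 at 60 against 12 weeks, and within 1 slide row, with fewer arrays, 703 at 60 against 12 weeks, among them 2 of the 11 AHR targets and 1 of the 12 PXR and CAR targets. The replicate block gave 5796, 4452 and 5246. Of the named genes, Hsp90ab1 turned to 0.08 at 12 against 0 weeks under quantile normalization (adjusted p = 0.427, limma), and Serpinb2 to 0.10 at 60 against 0 weeks with slide and row as a block (adjusted p = 0.884, limma); the cause was not tested. Of the other values of named genes 2694 kept their side of the threshold, 219 lost it and 41 gained it. No slide row held both 60 and 0 weeks, so no value within a row exists there, and normexp on mean signals was not run. Array signal near background limits Ahrr and Nr1i2 to bounds.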
